A study of Mus musculus with 8 samples.

Results

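Vcam1, Icam1, Icam2, Sele, Selp, Selplg, Itga4, Itgal and Ackr1 are 9 of the 21848 genes counted, taken by symbol because their products carry leukocyte adhesion to the vessel wall. They were described in cells of the cortical injury site taken 6 days after photothrombosis (PT), a stroke model in which illuminated Rose Bengal clots cortical vessels. The tissue was the right sensorimotor cortex with the injury and some spared tissue around it, without meninges, dissociated after red blood cell lysis and myelin removal and with no cell type enriched. All 8 adult mice, labelled Bl/J6 and female, received PT and an osmotic minipump implanted 2 days earlier. The 4 control mice received saline, and the 4 ancrod mice received 2.4 U of ancrod per day, a snake venom enzyme that depletes fibrinogen. Each mouse gave 1 single-cell library, named here by treatment and number. Replicates 1 to 3 of each treatment formed a first batch of injury and sequencing, and replicate 4 of each formed a second.

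Leukocytes leave the blood in steps. Endothelial selectins (Sele, E-selectin, and Selp, P-selectin) slow them by binding sugar-bearing ligands such as PSGL-1, the product of Selplg, and chemokines held on the endothelium then activate leukocyte integrins. Itga4 encodes the α4 chain of VLA-4, which binds VCAM-1, and Itgal encodes the αL chain of LFA-1, which binds ICAM-1 and ICAM-2. Ackr1 encodes an atypical chemokine receptor of venular endothelium that carries chemokines across the cell without signalling. In most organs the small veins after the capillaries are the main place of leukocyte exit.

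All 9 genes are protein coding, and their positions are given on GRCm39, the build of the counts, from GENCODE vM39. Sele (chr1:163867401-163886055, plus strand) and Selp (chr1:163942833-163977595, plus strand) are neighbours, and Ackr1 (chr1:173159453-173161317, minus strand) lies on the same chromosome. Itga4 is at chr2:79085660-79163467 (plus), Vcam1 at chr3:115903598-115923355 (minus), Selplg at chr5:113956597-113970705 (minus) and Itgal at chr7:126895432-126934320 (plus). Icam1 is at chr9:20926672-20940113 (plus) and Icam2 at chr11:106263312-106278943 (minus).

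The bases before the starts of Sele, Selp and Icam1 are shown. Most endothelial-like cells with a Selp UMI also had Icam1, Sele and Ackr1, but few of those with Icam1 had Selp, as given further on. The bases before Ackr1 are not shown. RefSeq promoter sequences (GRCm38.p6) were at hand for 5 of the 9 genes (Sele, Selp, Ackr1, Itga4 and Icam1). Each run holds the 250 bases upstream of the RefSeq start of the gene, 5′ to 3′ on the plus strand. The runs lie at chr1:164047984-164048233 (Sele), chr1:164115014-164115263 (Selp) and chr9:21015690-21015939 (Icam1). The RefSeq starts were not matched to the GENCODE positions above, in which Sele and Selp start further apart. Capitals mark the letters GGNNNTTCC on either strand, a loose form of the motif bound by NF-κB, the transcription factor of inflammatory signalling.
Sele: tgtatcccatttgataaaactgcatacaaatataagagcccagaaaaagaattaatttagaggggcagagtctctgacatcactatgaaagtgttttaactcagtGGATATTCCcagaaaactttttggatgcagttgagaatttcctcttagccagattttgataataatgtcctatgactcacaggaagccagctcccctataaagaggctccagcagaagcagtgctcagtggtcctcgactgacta
Selp: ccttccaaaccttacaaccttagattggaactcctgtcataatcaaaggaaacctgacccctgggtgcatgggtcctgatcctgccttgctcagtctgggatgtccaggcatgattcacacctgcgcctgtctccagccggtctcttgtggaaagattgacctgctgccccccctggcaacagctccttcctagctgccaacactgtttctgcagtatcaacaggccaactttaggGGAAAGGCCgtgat
Icam1: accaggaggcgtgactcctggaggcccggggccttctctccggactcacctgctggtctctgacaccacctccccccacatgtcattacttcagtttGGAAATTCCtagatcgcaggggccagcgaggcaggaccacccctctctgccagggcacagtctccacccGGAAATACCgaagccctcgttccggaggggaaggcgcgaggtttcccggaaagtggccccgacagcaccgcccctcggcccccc
These letters were found 145 bases before the RefSeq start of Sele, 14 bases before that of Selp and 153 and 84 bases before that of Icam1. They were also found once before Ackr1 and not before Itga4, so 4 of the 5 promoters held them, against 15.7% of 32851 mouse promoters of this length. A match of letters is not a measured binding site.

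Droplets with at least 2000 UMIs (unique molecular identifiers, 1 per captured RNA molecule) and under 20% mitochondrial UMIs were kept, and 44072 cells remained after doublet removal, 4874 to 5962 per mouse. The 4 saline libraries held 97861434 to 122758649 UMIs and the 4 ancrod libraries 126682918 to 142139441, so depth did not overlap between treatments. In all, 257 barcodes occurred in more than 1 library. Clusters were named from marker genes, and 6461 cells were endothelial-like, with all 10 endothelial markers detected in at least 10% of them. Of these, 4016 were capillary-like, 628 venous-like, 497 arterial-like, 267 tip-like and 40 dividing, and 1013 lay in 5 endothelial clusters without a zone name. The zones were clustered without the 9 adhesion genes. Levels are given as UMIs of the gene per 1000000 UMIs of that cell class in a mouse (CPM), are not corrected for gene length, and are compared only within a gene.

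Of the vessel-side genes, Selp, Ackr1, Sele and Icam2 had most of their UMIs in endothelium, and Vcam1 and Icam1 were shared with other cells. Endothelial-like cells were 14.7% ± 5.60 (SD, n = 8 mice) of all cells, and they held 90.7% ± 10.5 of all Selp UMIs, 85.8% ± 7.42 of those of Ackr1, 80.4% ± 12.2 of those of Sele and 77.6% ± 7.00 of those of Icam2. By treatment (saline and ancrod, n = 4 each), the endothelial shares were 97.4% and 84.0% for Selp, 91.7% and 80.0% for Ackr1, 89.2% and 71.6% for Sele and 83.1% and 72.2% for Icam2. Fibroblast-like cells held 1.55% and 15.4% of Sele UMIs. The 6728 cells in clusters without a name held 13.2% and 20.8% of Icam2 UMIs and 6.94% and 17.7% of Ackr1 UMIs. They included 580 cells of 4 endothelial clusters led by genes of another lineage. A further 536 scored highest for endothelium but were led by pericyte genes. The part of these cells in the endothelial shares was not tested. Of Vcam1 UMIs, 32.9% ± 13.4 came from endothelial-like cells, 22.7% ± 14.9 from fibroblast-like cells, 18.8% ± 4.53 from microglia-like cells and 11.9% ± 8.79 from astrocyte-like cells. By treatment, the endothelial share of Vcam1 was 41.9% ± 12.5 in the saline and 23.9% ± 6.93 in the ancrod mice (n = 4 each) and the fibroblast share 14.4% ± 9.71 and 31.1% ± 15.4, while endothelial-like cells were 19.4% and 10.1% and fibroblast-like cells 3.05% and 7.37% of all cells. Most Icam1 UMIs, 54.1% ± 6.92, came from microglia-like cells, and only 17.4% ± 5.32 from endothelium. Microglia-like cells were 37.0% of all cells in the saline and 31.5% in the ancrod mice. Clusters of 2122, 1903 and 819 further cells scored highest for microglia but were left without a name, so they are not in this class. On the leukocyte side, microglia-like cells held 74.1% ± 6.09 of Selplg UMIs. Itga4 and Itgal were spread more widely, with inflammatory macrophages holding 21.9% ± 2.97 of Itga4 UMIs and monocytes 28.8% ± 11.5 of Itgal UMIs as the largest shares. A share of UMIs moves with the number of cells of a class as well as with the level per cell.

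**Figure D1:**
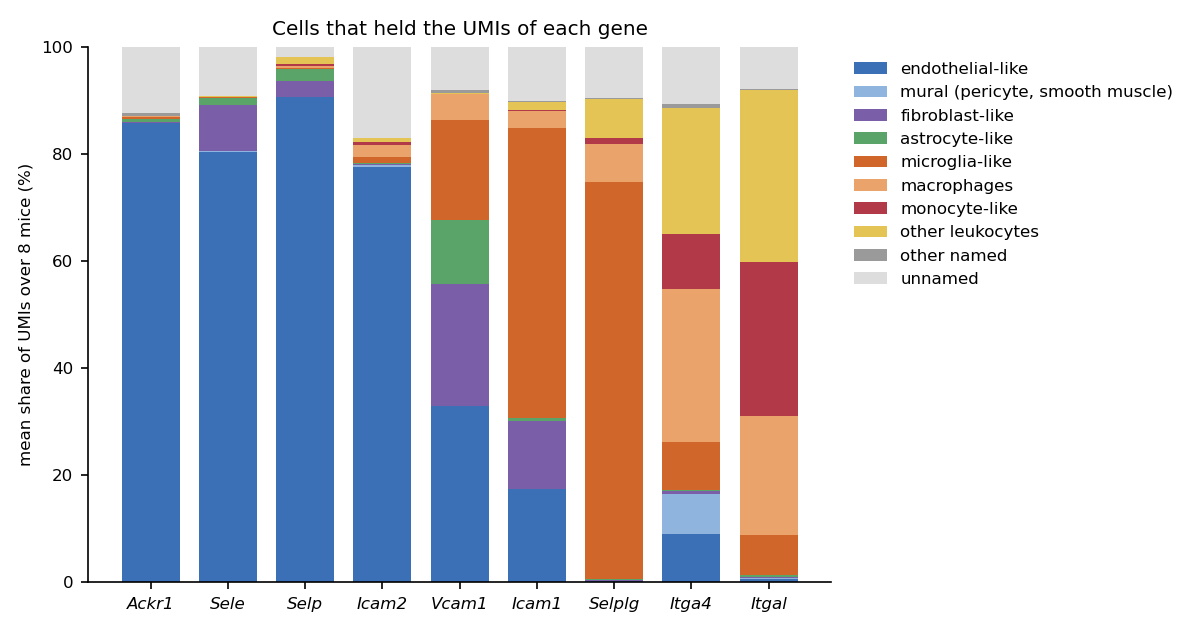
Share of each adhesion gene's UMIs (percent, mean over 8 mice) held by each cell class. Selp, Ackr1, Sele and Icam2 sit mainly in endothelial-like cells (77.6 to 90.7%), whereas microglia-like cells hold most Icam1 (54.1%) and Selplg (74.1%).

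Among the 4 named zones compared (venous, capillary, arterial and tip), 5 of the genes were highest in venous-like cells and Icam2 was not. Vcam1 was measured in venous-like cells at 628 to 2053 CPM (mean 1238 ± 441, SD, n = 8 mice), against 42.2 in capillary-like, 179 in arterial-like and 180 in tip-like cells. Venous exceeded each of the other zones in all 8 mice, with a venous to capillary ratio of 29.4. Arterial and tip levels did not separate, tip being the higher of the pair in 3 of 8 mice.

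Icam1, the ligand of LFA-1, was at 1087 ± 362 CPM in venous-like, 420 in tip-like, 120 in capillary-like and 95.1 in arterial-like cells. Its venous to capillary ratio was 9.06. Ackr1, the chemokine carrier, was at 648.5 ± 224 CPM in venous-like cells and 4.32 in capillary-like cells, a ratio of 150. No Ackr1 UMI was counted in the 497 arterial-like cells, which allows a share of cells with a UMI of up to 0.604%. Sele was at 115 ± 55.9 CPM in venous-like cells, from 41.3 in saline 1 to 216 in saline 3, and at 1.27 in capillary-like cells, a ratio of 90.2. In the 4016 capillary-like cells only 54 Sele UMIs and 5 Selp UMIs were counted. The capillary levels under these ratios moved with the processing. Without doublet removal they were 17.1 CPM for Ackr1, 2.60 for Sele and 222 for Icam1. Under the study's cell filter, rebuilt in part, they were 264 for Icam1 and 95.5 for Vcam1, so the ratios give no order among the genes. Free RNA, counted in droplets of at most 100 UMIs, averaged 271 CPM for Icam1, 103 for Vcam1, 31.1 for Ackr1 and 4.69 for Sele. The mean capillary levels of these genes, as first given, and the mean arterial level of Icam1 lay below it.

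Icam2, which resting endothelium carries, went the other way. It was at 223 CPM in arterial-like, 207 in tip-like and 150 in capillary-like cells and at 127 ± 15.9 in venous-like cells, which were below each of the other zones in all 8 mice. Arterial-like cells exceeded capillary-like cells in 8 of 8 mice and tip-like cells in 6 of 8. The integrin gene Itga4 was highest in tip-like cells, at 63.3 CPM against 23.7 in venous-like, 22.9 in capillary-like and 8.06 in arterial-like cells. Selplg (1.83 to 5.96 CPM) and Itgal (0.226 to 3.18 CPM) were low in every zone, below their free RNA (137 and 10.6 CPM), and were also highest in tip-like cells. The part of leukocyte RNA in the tip-like levels was not tested. The Itga4 levels of venous-like and capillary-like cells were about that of its free RNA (25.1 CPM). Differences between zones are descriptions, since the zones are clusters of these same cells. The levels moved with the clustering: Ackr1 was at 394 CPM in venous-like cells at a coarser clustering, and Vcam1 at 344 in tip-like cells without doublet removal.

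**Figure D2:**
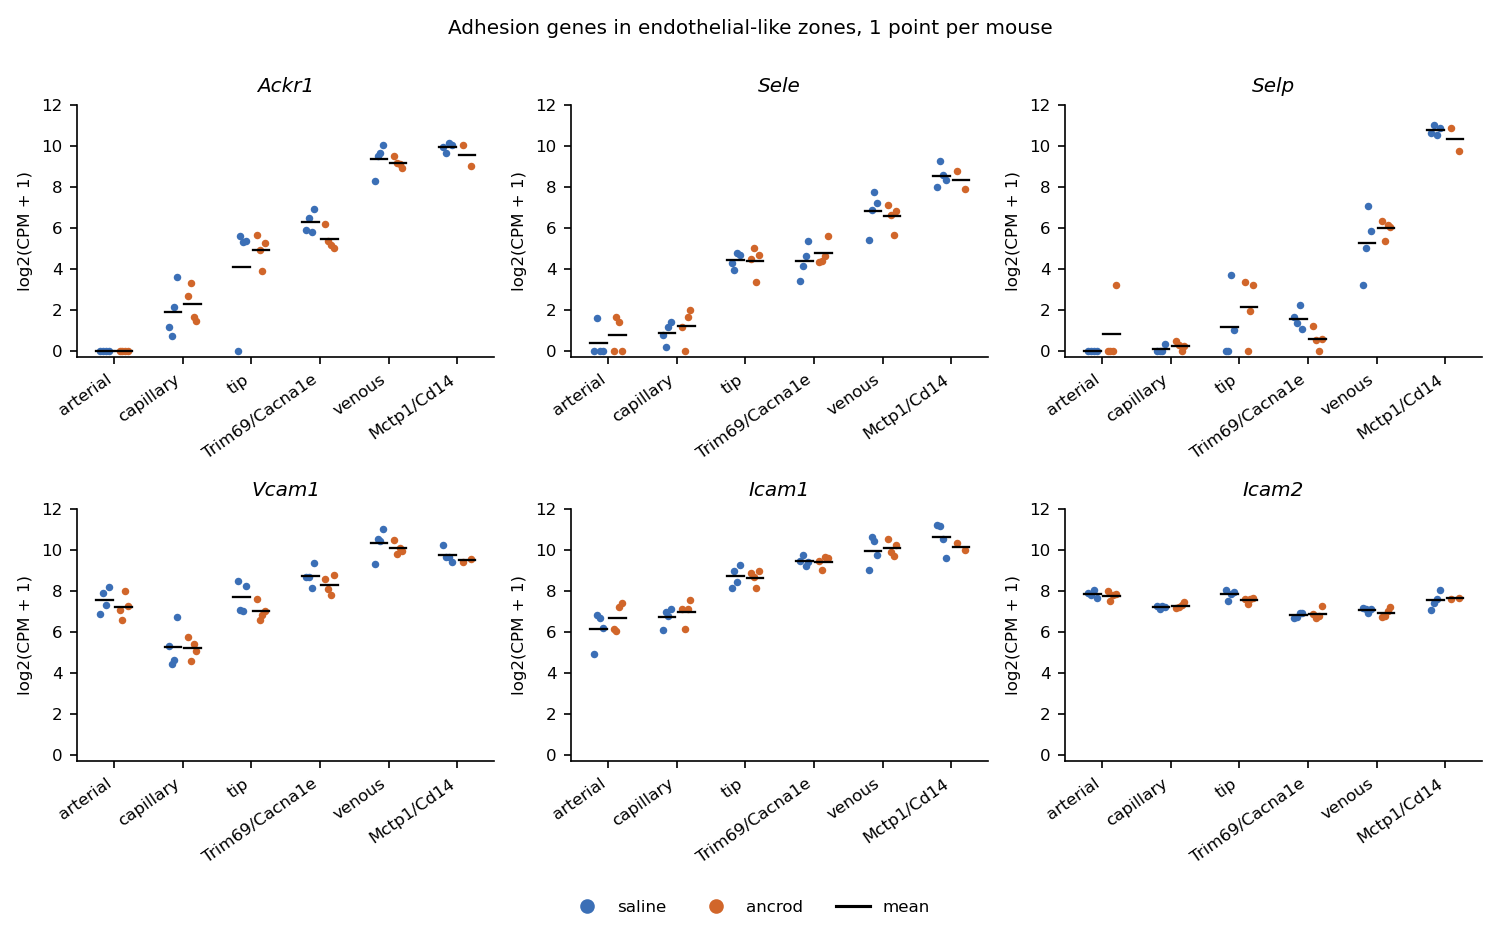
Level of the adhesion genes in the endothelial zones, as log2(CPM + 1), with 1 point per mouse by treatment and a line for the mean. Among the named zones Vcam1, Icam1, Sele, Selp and Ackr1 are highest and Icam2 lowest in venous-like cells, and the means of Selp, Sele, Ackr1 and Icam1 are higher still in the Mctp1 cluster.

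The venous-like clusters were led by Lcn2, Ptgs2, Cxcl1 and Cxcl2, by Ifitm1 and Ptgs2, or by Il1r1, Lcn2, Ccl19 and Lrg1, which include acute phase, prostaglandin and chemokine genes. Of the pathway's regulators, Nfkbia, the NF-κB inhibitor that NF-κB itself induces, was at 2161 ± 389 CPM in venous-like and 1018 ± 114 in capillary-like cells. Tnfaip3, a further NF-κB target and brake, was at 204 ± 70.2 CPM in venous-like and 32.1 ± 8.63 in capillary-like cells. Both genes were chosen after their values were seen, from 9 in the role of receptors with the NF-κB response. The zones were split on expression, so these differences are descriptions. Madcam1, the mucosal α4β7 ligand, was at 0.0438 CPM in venous-like cells and 0 in capillary-like cells.

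Most endothelial Selp UMIs lay in 1 small cluster that was not given a zone name. Its leading genes were Mctp1, Cd14, Tll1, Plvap, Pdlim1, Slco2a1, Adamts4, Aplnr, Pcdh7 and Ptgs2, and 10 of 10 endothelial, 8 of 8 venous and 7 of 8 tip markers were detected in it. It held 148 cells, 2.46% ± 1.51 of endothelial-like cells, and 76.1% ± 21.5 of endothelial Selp UMIs (26.9 to 95.9% by mouse). In mice with at least 10 such cells, Selp was at 1544, 2061, 1445 and 1885 CPM in saline 1 to 4, 1888 in ancrod 3 and 846 in ancrod 4. Venous-like cells, at 60.2 ± 37.0 CPM (8.17 to 131), lay below this cluster in each of those 6 mice. Sele was at 370 ± 134, Ackr1 at 920 ± 225 and Icam1 at 1524 ± 659 CPM in the cluster, with means above those of venous-like cells, and Vcam1 at 813 ± 201 CPM, with a mean below. Fibroblast markers in the Mctp1 cluster summed to 19.1 to 130 CPM in the 4 saline mice and 606 to 833 in ancrod 3 and 4, and their part in these levels was not tested. The dividing endothelial cells also carried Selp, with a UMI in 24 of 40 cells and a Sele UMI in 25, at a median depth of 82683 UMIs. In the 2 mice with at least 10 dividing cells, ancrod 1 and 4, Selp was at 320 and 165 CPM and Sele at 214 and 79.5. Without doublet removal, the venous-like clusters took in more of the Selp UMIs and the venous mean was 312 CPM.

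A second unnamed endothelial cluster, of 487 cells led by Trim69, Cacna1e and Sdk1, showed Icam1 at 701 and Vcam1 at 381 CPM with Selp at only 1.34 CPM. Cells of this cluster thus carried Icam1 and Vcam1 with almost no Selp. Among all endothelial-like cells, 325 had a Selp UMI, and 97.2% of these also had Icam1, 93.9% Vcam1, 91.1% Ackr1 and 81.5% Sele. Among the other endothelial-like cells the shares were 39.0%, 21.8%, 9.44% and 4.99%. Of the 571 cells with a Sele UMI, 46.4% had Selp. The other way, of the 2706 cells with an Icam1 UMI, 11.7% had Selp and 20.4% had Sele. Cells with more UMIs show more genes of any kind, and these shares are not corrected for depth.

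With every cell thinned to 2000 UMIs, a Vcam1 UMI was found in 65.4% of venous-like cells (90.1% unthinned), an Icam1 UMI in 59.9% (85.0%), an Ackr1 UMI in 48.3% (81.3%), a Sele UMI in 13.3% (47.0%) and a Selp UMI in 5.99% (25.6%). In capillary-like cells the thinned shares were 2.79% for Vcam1, 12.3% for Icam1, 0.669% for Ackr1 and 0.146% for Sele. Microglia-like cells, which should lack these endothelial genes, had thinned shares of 0.0896% for Ackr1 (0.534% unthinned), 0 for Sele (0.0825%), 0.0434% for Selp (0.124%) and 0.146% for Icam2 (1.497%). Median depth was 26362.5 UMIs in venous-like, 8265 in capillary-like and 14523 in microglia-like cells. Icam2 was found in 23.9% of venous-like, 27.6% of capillary-like, 34.8% of tip-like and 39.1% of arterial-like cells after thinning (84.7%, 73.3%, 94.8% and 87.8% unthinned), the same order as its CPM means. In the Mctp1 cluster, 54.2% of thinned cells had Selp (71.8% unthinned) and 42.1% had Sele (77.3%).

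Outside the endothelium, Vcam1 and Icam1 reached comparable levels in several classes. Vcam1 was at 409 ± 146 CPM in endothelial-like cells, 322 ± 67.5 in fibroblast-like cells, 272 ± 119 in border-associated macrophages, 238 ± 70.3 in astrocyte-like cells, 165 in oligodendrocyte precursor-like cells (6 mice) and 107 ± 17.4 in microglia-like cells. Endothelium exceeded fibroblasts in 6 of 8 mice, so these neighbours did not separate. Icam1 was highest in microglia-like cells, at 710 ± 69.0 CPM, above endothelial-like cells (500 ± 145) in all 8 mice, and fibroblast-like cells were at 390 ± 84.5. The thinned share of microglia-like cells with Icam1 was 63.2% (92.6% unthinned). Icam1 was also the adhesion gene with most free RNA, at 271 CPM in droplets of at most 100 UMIs, followed by Selplg at 137, Vcam1 at 103, Ackr1 at 31.1, Itga4 at 25.1, Icam2 at 21.4, Itgal at 10.6, Selp at 5.71 and Sele at 4.69 CPM. The Vcam1 level of microglia-like cells was close to that of its free RNA, and the levels of Ackr1 in neuron-like cells and of Icam2 in smooth muscle-like cells and border-associated macrophages lay below theirs.

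The other vessel genes dropped steeply outside endothelium. Icam2 was at 155 ± 15.4 CPM in endothelial-like cells and next at 17.8 in smooth muscle-like cells. Sele was at 52.0 ± 17.8 and next at 3.97 in fibroblast-like cells, with no UMI in 3394 inflammatory macrophages, which allows up to 0.0884% of cells with a UMI. Ackr1 was at 206 ± 70.1 CPM and next at 10.6 in neuron-like cells. Selp was at 88.9 ± 41.5 CPM and next at 14.3 ± 9.08 in neutrophils, lower in all 8 mice. The neutrophil level rests on 20 UMIs in 12 of 163 cells with saline and 31 UMIs in 24 of 534 cells with ancrod. Platelets also store P-selectin, and platelet markers summed to 0 to 4.79 CPM in the neutrophils.

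On the leukocyte side, NK and T cells led for both Selplg and Itga4, and neutrophils and monocytes for Itgal. Selplg had its highest mean in natural killer (NK) cells, at 659 ± 79.2 CPM (n = 8 mice), above T cells (521 ± 48.7) in every mouse. T cells exceeded neutrophils in 6 of 8 mice. Neutrophils (437 ± 144) and microglia-like cells (435 ± 72.2) came next and did not separate, then dendritic cells (320), monocytes (156), inflammatory macrophages (85.8) and border-associated macrophages (72.6). Free RNA of Selplg was at 109 to 191 CPM by library, so the monocyte level was about that of free RNA and both macrophage levels lay below it. Microglia, which reside in the brain and do not roll on vessels, thus had Selplg levels like those of neutrophils. After thinning, a Selplg UMI was found in 69.9% of NK cells (97.8% unthinned), 63.0% of T cells (93.0%) and 56.5% of microglia-like cells (95.6%), against 0.513% of endothelial-like cells (4.53%), whose median depth was 10099 UMIs.

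Itga4 was at 509 ± 101 CPM in T cells and 506 ± 156 in NK cells, which did not separate, and at 396 ± 41.6 in monocytes. Pericyte-like cells, mural cells of the capillary and no leukocytes, were at 286 ± 45.2, level with dendritic cells (283) and above neutrophils (194) in 8 of 8 mice. The macrophage classes were lower, at 97.6 in border-associated macrophages, 85.5 in inflammatory macrophages and 13.4 in microglia-like cells. Under the study's cell filter, rebuilt in part, Itga4 was at 258 CPM in monocytes. The thinned share with Itga4 was 52.5% in T cells (80.2% unthinned), 41.7% in pericyte-like cells (72.7%) and 2.26% in microglia-like cells (11.8%). The α4 chain pairs with β1 (Itgb1) or β7 (Itgb7). Itgb1 was at 477 CPM in T cells and 895 in pericyte-like cells, whereas Itgb7 was at 166 in T cells, 148 in NK cells, 194 in dendritic cells and 0.500 in pericyte-like cells.

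Itgal separated neutrophils, monocytes and lymphocytes from the macrophage classes. It was at 342 ± 108 CPM in neutrophils, 317 ± 99.7 in monocytes, 236 in NK cells and 215 in T cells, with each neighbour higher than the next in 6 of 8 mice. The place of monocytes in this order depended on the cell filter, since under the partly rebuilt study filter their mean was 171 CPM. Inflammatory macrophages were at 20.0, so T cells were 10.7 times higher and above them in all 8 mice, and microglia-like cells were at 2.85. Of the 3394 inflammatory macrophages, 355 lay in a cluster whose leading genes held as many listed microglial markers (Tmem119 and Olfml3) as markers of its own class (Ms4a7 and Gpnmb). Its β2 partner Itgb2 was not so divided, at 344 CPM in neutrophils, 378 in monocytes, 204 in inflammatory macrophages and 188 in microglia-like cells. An Itgal UMI was found in 46.8% of thinned neutrophils (67.2% unthinned, median depth 4863 UMIs) and 0.0440% of endothelial-like cells (0.499%).

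**Figure D3:**
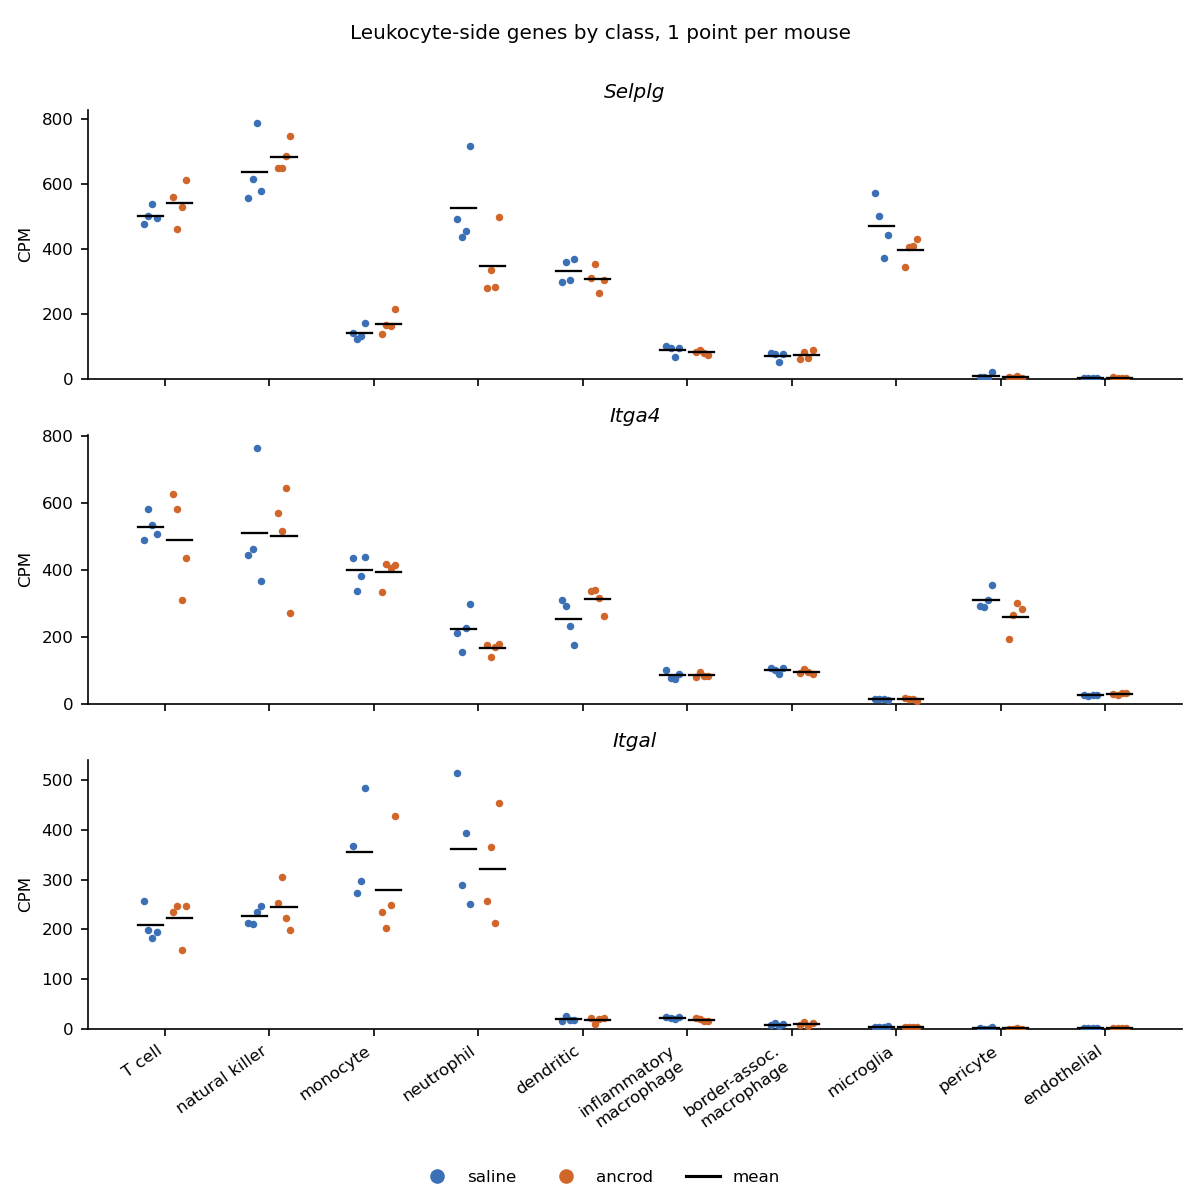
Level of Selplg, Itga4 and Itgal (CPM, linear axis) in leukocyte, pericyte-like and endothelial-like cells, with 1 point per mouse by treatment and a line for the mean. Selplg is highest in NK cells (659 CPM), Itga4 in T and NK cells (509 and 506 CPM), and Itgal in neutrophils (342 CPM), with little Itgal in microglia-like cells (2.85 CPM).

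For each gene, the other genes whose mean log2(CPM + 1) followed it most closely over 18 cell classes and zones were taken from 13507 genes. Icam2 went with Pecam1 (Pearson r 0.955), which encodes an endothelial junction protein, and Selplg with Arhgap45 (0.985) and Ptprc (0.983), the latter encoding the leukocyte antigen CD45. Itgal went with Ly6c2 and Tnfsf14 (both 0.965). The nearest gene was Lhx6 (0.920) for Sele and Grem1 (0.908) for Ackr1. Both Sele and Ackr1 had Adh1 and Aplnr among their 3 nearest genes (0.882 and 0.872 for Sele, 0.859 and 0.877 for Ackr1), and Selp had Best1 (0.838), Lcn2 (0.795) and Lrg1 (0.788). Icam1 had Klf10 (0.832), Jak3 (0.8245) and Nfkbia (0.819), Vcam1 had Dolk (0.855) and Itga4 had Epb41 (0.822). The classes share libraries, so these values describe likeness only.

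The comparison of ancrod with saline asked whether these genes differed when fibrinogen was depleted. The UMIs of each class were summed per mouse and fitted across all genes with edgeR's quasi-likelihood test, which allowed 83 tests of the 9 genes in 17 classes and zones. None of the 83 passed an adjusted p of 0.05 by edgeR, against 0.016% of all tests over these classes, and DESeq2 called 1. At an unadjusted p under 0.05 there were 11, or 13.25% of them, against 6.01% of all tests, and by DESeq2 there were 6, or 7.23%. Of the 83 differences 40 were higher and 43 lower with ancrod, with a median log2 difference of -0.02 and a range of -0.70 to 2.70. The treatment groups did not overlap in 1 of the 83 (3.34% of all tests), Vcam1 in astrocyte-like cells, where they did not for 2.48% of all genes. The other pairs of gene and class had too few UMIs to test, among them Itgal in endothelial-like cells, Sele and Selp in microglia-like cells, Ackr1, Sele and Selp in arterial-like cells and all but 2 genes in pericyte-like cells. Genes of any kind called by edgeR made up 0.0118% in arterial-like cells, 0.00985% in border-associated macrophages, 0.00782% in fibroblast-like cells and 0.244% in pericyte-like cells, and 0 in the other 13 classes and zones. The number of endothelial-like cells moved too, from 963 to 1193 per saline mouse and 366 to 755 per ancrod mouse.

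In endothelial-like cells, Ackr1 was at 84.2, 208, 210 and 318 CPM in saline 1 to 4 and at 267, 221, 153 and 187 in ancrod 1 to 4. The groups overlapped, and edgeR gave a log2 difference (ancrod minus saline) of 0.01 ± 0.33 (SE; 95% interval -0.73 to 0.75; adjusted p = 0.994). Its direction differed between batches, with log2 ratios of means of 0.35 in the first and -0.76 in the second.

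Sele was at 15.3, 68.8, 64.0 and 55.3 CPM in the saline mice and 59.0, 41.6, 44.8 and 67.0 in the ancrod mice (edgeR log2 difference 0.05 ± 0.37, interval -0.78 to 0.88, adjusted p = 0.973). Selp was at 38.9, 136, 97.1 and 79.6 CPM in the saline mice and 59.6, 37.6, 123 and 139 in the ancrod mice (0.01 ± 0.44, interval -0.96 to 0.98, adjusted p = 0.997). The treatments overlapped for both selectins, and both intervals reached well past 0.5 log2 units in either direction. Saline 1 held the lowest value of Ackr1, Sele, Vcam1 and Icam1 among the 8 mice.

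The integrin ligands did not pass the test either. Vcam1 was at 218, 446, 366 and 682 CPM with saline and 531, 340, 288 and 400 with ancrod (edgeR log2 difference -0.14 ± 0.31, interval -0.83 to 0.56, adjusted p = 0.889). Icam1 was at 257, 706, 495 and 400 CPM with saline and 650, 452, 448 and 590 with ancrod (0.19 ± 0.27, interval -0.42 to 0.80, adjusted p = 0.808). Icam2, the steadiest of the vessel genes, was at 160, 144, 160 and 159 CPM with saline and 144, 129, 162 and 180 with ancrod (-0.03 ± 0.10, interval -0.24 to 0.19, adjusted p = 0.931). Its interval excludes a change of more than 0.24 on the log2 scale in either direction, the narrowest interval among the vessel-side genes. Each of these 6 vessel-side directions turned with 1 mouse left out. Without saline 1 the difference was -0.25 for Ackr1, -0.25 for Sele, -0.24 for Selp and -0.01 for Icam1, without saline 4 it was 0.18 for Vcam1, and without ancrod 2 it was 0.06 for Icam2.

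Itga4 in endothelial-like cells was the only endothelial test of the 8 made with an unadjusted p under 0.05, against 9.23% of all genes tested there. It was at 25.8, 22.9, 26.4 and 25.1 CPM with saline and 29.9, 26.2, 30.9 and 33.4 with ancrod, a log2 difference of 0.26 ± 0.08 (interval 0.08 to 0.44, edgeR unadjusted p = 0.0103, adjusted p = 0.508). The groups overlapped by 1 mouse, ancrod 2. Free RNA of Itga4 was at 20.19 to 29.97 CPM by library, so the endothelial level was about that of free RNA. Capillary-like cells made up 61.9 to 70.2% of endothelial-like cells in the saline mice and 46.2 to 58.4% in the ancrod mice, and tip-like cells, in which Itga4 was highest, 1.51 to 4.86% and 3.58 to 11.7%. The part of this shift in the Itga4 difference was not tested.

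No gene passed within the venous-like cells, where none had an unadjusted p under 0.05 either, against 3.48% of all genes. Vcam1 was at 628, 1467, 1389 and 2053 CPM with saline and 1429, 889, 1065 and 988 with ancrod (edgeR log2 difference -0.34 ± 0.28, interval -0.96 to 0.28). Ackr1 was at 313, 730, 791 and 1048 CPM with saline and 718, 569, 545 and 475 with ancrod (-0.32 ± 0.28, interval -0.93 to 0.29). The highest value of both genes was in saline 4 and the lowest in saline 1, so the ancrod mice lay inside the saline range. Selp was at 8.17, 31.1, 131 and 56.1 CPM with saline and 80.7, 39.4, 69.9 and 65.1 with ancrod, and its interval of -1.04 to 1.28 was the widest of these genes. Sele (-0.38 ± 0.39) and Icam1 (0.05 ± 0.30) also overlapped, and the adjusted p rounded to 1.00 for each of these venous genes. Venous-like cells were 7.55 to 13.1% of endothelial-like cells with saline and 8.08 to 13.9% with ancrod.

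In the remaining zones 2 tests had an unadjusted p under 0.05, both in tip-like cells, where 4.41% of all genes did (4.47% in capillary-like and 4.52% in arterial-like cells). Vcam1 there was at 360, 130, 126 and 297 CPM with saline and 194, 94.2, 113 and 128 with ancrod (edgeR log2 difference -0.70 ± 0.30, unadjusted p = 0.0299). Icam2 was at 259, 180, 225 and 242 CPM with saline and 192, 162, 194 and 201 with ancrod (-0.26 ± 0.12, unadjusted p = 0.0494). The groups overlapped for both genes, and these rest on 17 to 58 tip-like cells per mouse. In arterial-like cells Icam1 had a difference of 0.63 ± 0.34, and in capillary-like cells Vcam1 one of -0.36 and Icam1 one of 0.28, none of which passed. Without saline 4 the capillary Vcam1 difference was 0.37.

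**Figure D4:**
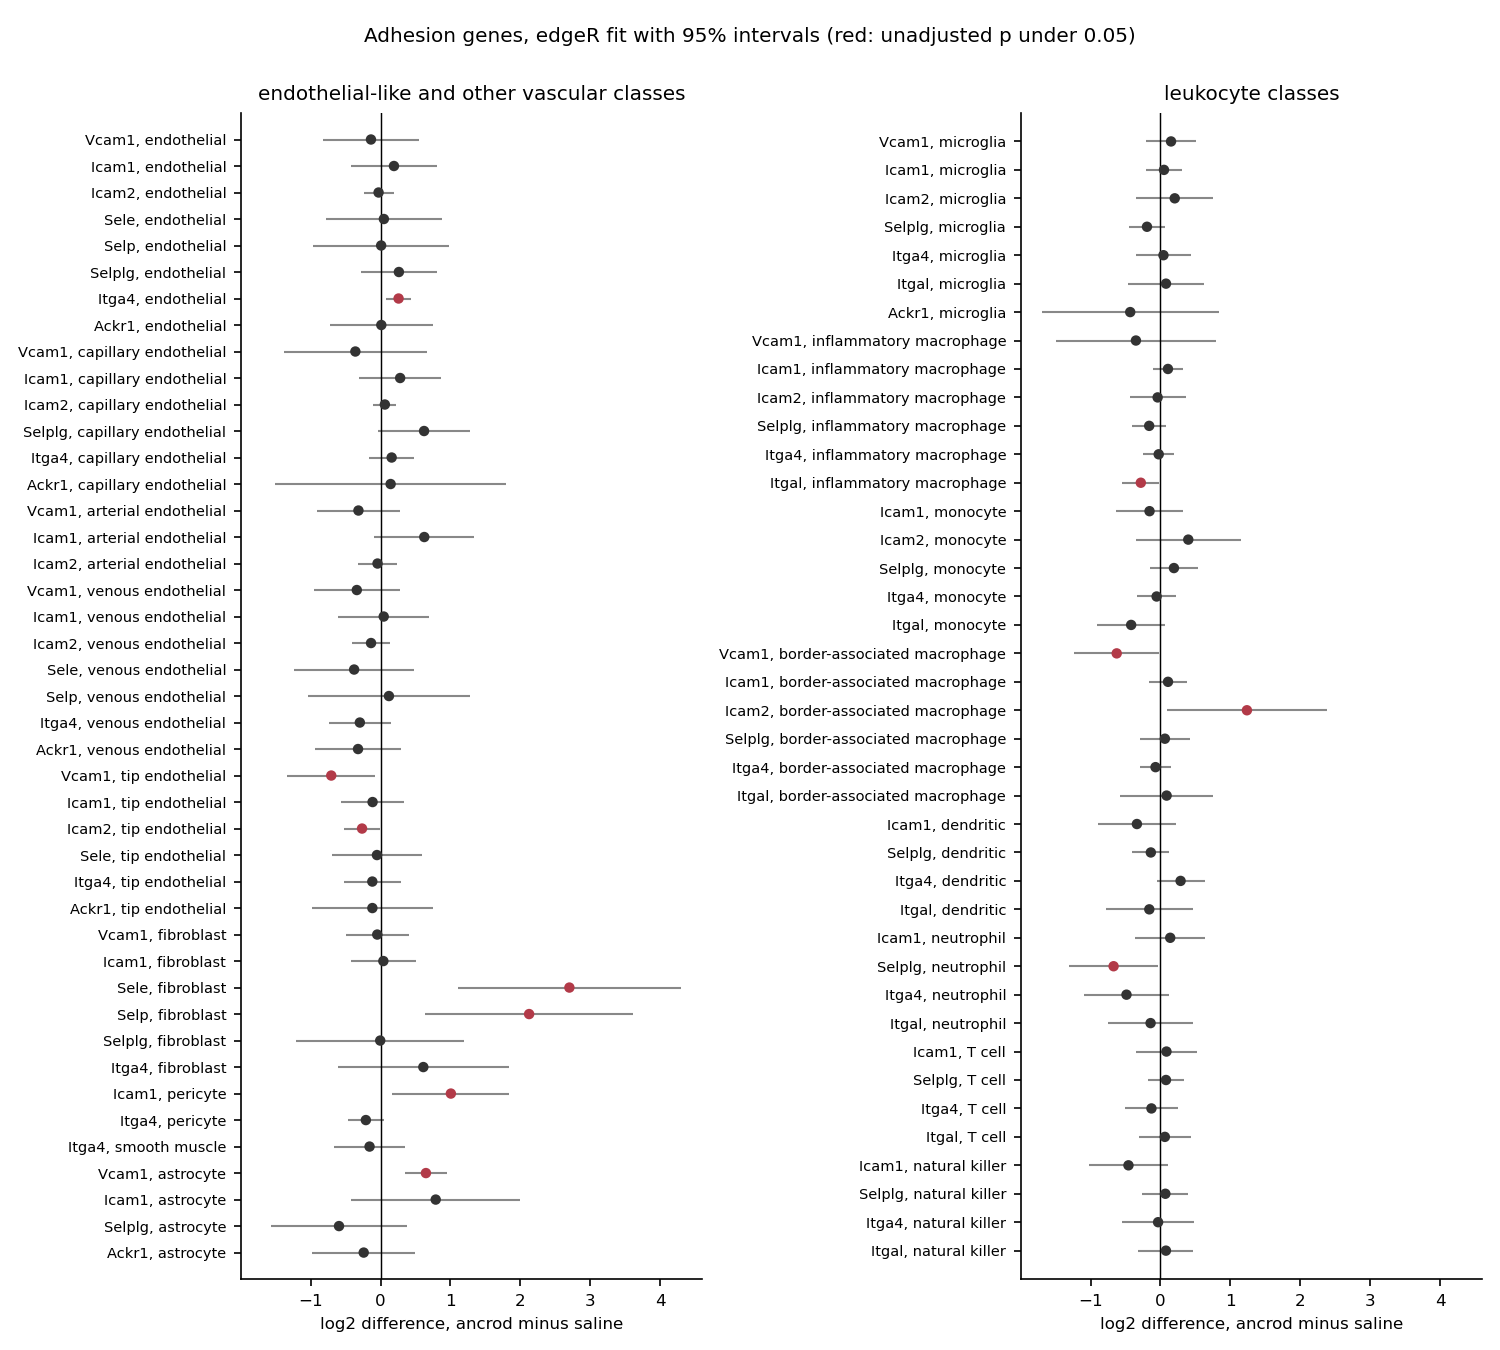
Log2 difference (ancrod minus saline) of each adhesion gene in each cell class or zone where it was tested, with its 95% interval from edgeR. None of the 83 tests passed an adjusted p of 0.05, and the differences range from -0.70 to 2.70.

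Leukocyte-side genes were likewise not called in any of the leukocyte classes. Of 40 tests in these 8 classes 4 had an unadjusted p under 0.05, and the share of all genes that did was 7.43% in microglia-like cells, 2.67% in inflammatory macrophages, 4.84% in monocytes, 7.34% in dendritic cells, 3.35% in T cells and 3.65% in NK cells. Selplg in neutrophils was at 492, 437, 456 and 716 CPM with saline and 280, 334, 281 and 498 with ancrod, a log2 difference of -0.67 ± 0.30 (edgeR unadjusted p = 0.0396, adjusted p = 0.900). In neutrophils 4.74% of all genes had an unadjusted p under 0.05. Only ancrod 4 reached into the saline range, and the log2 ratio of means was -0.63 in the first batch and -0.52 in the second. Neutrophils numbered 11 to 69 per saline mouse and 24 to 232 per ancrod mouse. In microglia-like cells Selplg was at 572, 500, 372 and 444 CPM with saline and 346, 406, 410 and 431 with ancrod (-0.19 ± 0.11, adjusted p = 0.673).

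No integrin gene passed the test. Itgal in monocytes was at 367, 274, 296 and 484 CPM with saline and 235, 203, 249 and 428 with ancrod (edgeR log2 difference -0.42 ± 0.23, unadjusted p = 0.0883). Itgal in inflammatory macrophages was at 23.3, 20.5, 20.1 and 23.4 CPM with saline and 22.3, 20.1, 15.5 and 15.2 with ancrod (-0.28 ± 0.12, unadjusted p = 0.0402, adjusted p = 0.999). Itga4 differed by -0.05 in monocytes, -0.13 in T cells, -0.03 in NK cells and 0.29 in dendritic cells on the log2 scale. Among T cells, Itga4 was at 491, 582, 535 and 507 CPM with saline and 627, 583, 310 and 435 with ancrod, so the ancrod mice lay on both sides of the saline mice.

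Border-associated macrophages gave the other 2 leukocyte tests with an unadjusted p under 0.05, where 4.8% of all genes did. Vcam1 was at 333.1, 507, 297 and 190 CPM with saline and 327, 165, 165 and 193 with ancrod (edgeR log2 difference -0.63 ± 0.28, unadjusted p = 0.0458, adjusted p = 0.945). Icam2 was at 0.896, 0.932, 0.336 and 4.27 CPM with saline and 3.91, 5.10, 5.47 and 3.93 with ancrod (1.24 ± 0.53, unadjusted p = 0.0366, adjusted p = 0.945). Both differences were found in the first batch, with log2 ratios of means of -0.79 for Vcam1 and 2.74 for Icam2, and neither in the second, at 0.03 and -0.12. Endothelial markers in these macrophages summed to 18.1 to 38.5 CPM with saline and 13.4 to 33.8 with ancrod.

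The lowest p-values came from astrocyte-like and fibroblast-like cells. Vcam1 in astrocyte-like cells was at 184, 198, 195 and 163 CPM with saline and 383, 254, 273 and 252 with ancrod. All 4 ancrod mice lay above all 4 saline mice, and the log2 difference was 0.65 ± 0.13 (interval 0.35 to 0.95, edgeR unadjusted p = 0.000652, adjusted p = 0.9999). DESeq2, the alternative test, gave an adjusted p of 0.0274, the call named above. In astrocyte-like cells 3.38% of all genes had an unadjusted p under 0.05 by edgeR. Within the batches the log2 ratios of means were 0.66 and 0.62. The saline mice gave 133 to 662 astrocyte-like cells and the ancrod mice 422 to 1198. Fibroblast markers in these cells summed to 18.9 to 48.2 CPM with saline and 44.4 to 87.8 with ancrod, endothelial markers to 44.8 to 146 and 16.3 to 92.7, and their part was not tested.

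Fibroblast-like cells were named from general fibroblast markers and were not assigned to a location. Sele in them was at 1.84, 0.855, 2.96 and 0.183 CPM with saline and 7.72, 1.44, 6.725 and 10.0 with ancrod. The log2 difference was 2.70 ± 0.71 (interval 1.103 to 4.30, edgeR unadjusted p = 0.00377, adjusted p = 0.250), and ancrod 2 lay inside the saline range. Few cells carried it: 25 UMIs in 11 of 658 cells with saline and 567 UMIs in 94 of 1607 cells with ancrod. Saline mice gave 28 to 240 fibroblast-like cells and ancrod mice 116 to 639, and the values of saline 3 rest on 28 cells. Selp was at 0.425, 0.712, 0 and 1.19 CPM with saline and 2.48, 5.91, 4.52 and 0.864 with ancrod (2.12 ± 0.67, unadjusted p = 0.01004, adjusted p = 0.266), and 5 cells held 66.8% of the ancrod UMIs. At these levels, far below those of endothelium, endothelial markers summed to 55.5 to 186 CPM with saline and 78.4 to 98.1 with ancrod, and free RNA was not separated from the cells' own. In fibroblast-like cells 13.8% of all genes had an unadjusted p under 0.05.

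Icam1 in pericyte-like cells was at 43.0, 43.4, 6.80 and 10.4 CPM with saline and 66.5, 59.2, 59.4 and 19.4 with ancrod, a log2 difference of 1.006 ± 0.40 (interval 0.17 to 1.84, edgeR unadjusted p = 0.0211, adjusted p = 0.363). Only ancrod 4 lay within the saline range, and the log2 ratio of means was 0.99 in the first batch and 0.89 in the second. All 8 values lay below the free RNA of Icam1, at 226 to 334 CPM by library. Few cells carried it: 32 of 687 with saline, 5 of which held 72.4% of the UMIs, and 42 of 507 with ancrod, 5 of which held 43.3%. Without the filter on low counts edgeR called it (adjusted p = 0.0398), and without doublet removal the log2 difference was 0.17. Fibroblast markers in pericyte-like cells summed to 689 to 939 CPM with saline and 1056 to 1429 with ancrod and did not overlap, and their part was not tested. In pericyte-like cells 10.0% of all genes had an unadjusted p under 0.05, and in smooth muscle-like cells, where no adhesion gene did, 4.45%.

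**Figure D5:**
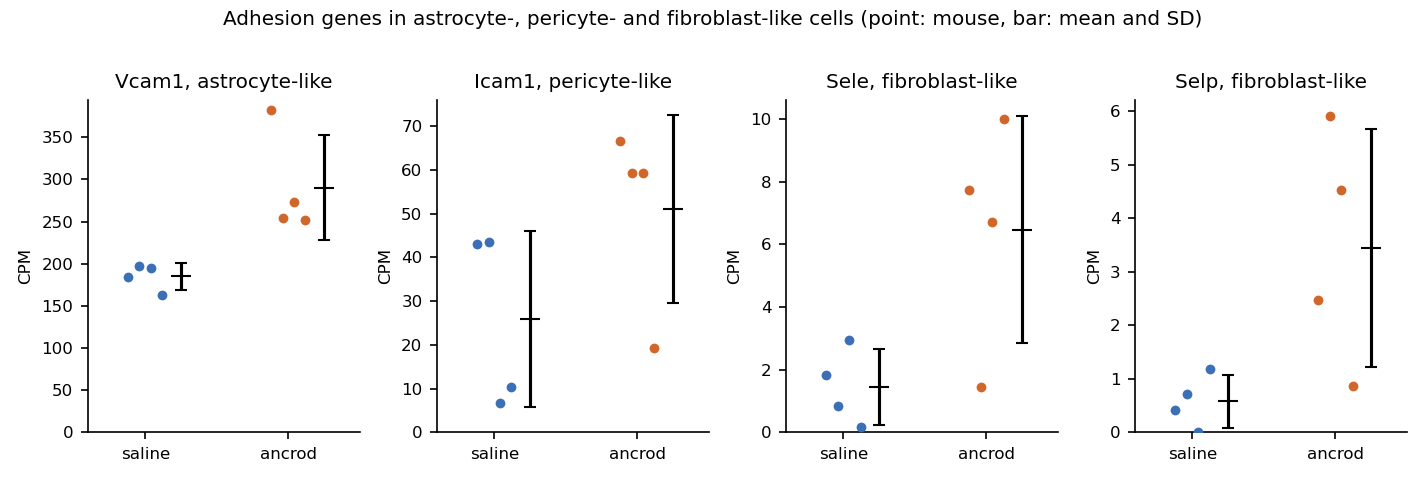
CPM of Vcam1 in astrocyte-like, Icam1 in pericyte-like and Sele and Selp in fibroblast-like cells by mouse, with the mean and SD of each treatment. Only astrocyte Vcam1 separates the treatments (163 to 198 CPM with saline, 252 to 383 with ancrod), and none of these passed the adjusted threshold by edgeR.

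The wider adhesion pathway was read from a list of 53 genes in 7 roles (selectin ligands and their glycosylation, integrin chains, integrin activation, junction molecules, other endothelial adhesion molecules, anchors and shedding, and receptors with the NF-κB response). None was called in 640 tests over the 17 classes and zones by edgeR or by DESeq2. By edgeR 38 of them, or 5.94%, had an unadjusted p under 0.05, close to the 6.01% of all tests, and by DESeq2 41. In endothelial-like cells 46 of the 53 were tested, 27 higher and 19 lower with ancrod, with a median log2 difference of 0.02 against -0.01 over all genes, and 5 had an unadjusted p under 0.05, where 9.23% of all genes did. Chst2, a sulphotransferase that acts on sugar-bearing ligands, was at 13.6, 11.02, 12.1 and 13.1 CPM with saline and at 14.6 or more in each ancrod mouse (0.30 ± 0.09, edgeR adjusted p = 0.508). Mcam, encoding the endothelial adhesion protein CD146, was at 13.8, 34.4, 24.9 and 24.8 CPM with saline and 54.5, 32.7, 36.4 and 64.5 with ancrod (0.93 ± 0.28, adjusted p = 0.508). Jam2, a junction gene that VLA-4 can bind, was at 327, 275, 294 and 300 CPM with saline and 218, 269, 263 and 250 with ancrod (-0.27 ± 0.08, adjusted p = 0.508). For Chst2 and Jam2 the treatments did not overlap, as for 4.1% of all genes tested in endothelial-like cells, and for Mcam ancrod 2 lay within the saline range. All 9 NF-κB genes and cytokine receptors tested in endothelial-like cells had a difference above 0, with a median of 0.15, and none was called. Of the other 6 roles, junction molecules were above 0 in 2 of 7 (median -0.03) and selectin ligands in 6 of 9 (0.02), and the remaining 4 had medians of -0.03 to -0.000073. Outside endothelium the NF-κB role was above 0 in 9 of 9 genes in astrocyte-like cells (median 0.44) and 7 of 8 in pericyte-like cells (0.32). It was above 0 in 6 of 6 in smooth muscle-like cells (0.48) and 6 of 9 in fibroblast-like cells (0.17). Leukocyte classes varied, with 8 of 9 above 0 in inflammatory macrophages (0.095) and border-associated macrophages (0.13). The counts were 7 of 9 in microglia-like cells (0.06), 6 of 9 in T cells (0.035) and 5 of 9 in neutrophils (0.02). They were 4 of 9 in monocytes (-0.015), 4 of 8 in NK cells (0.01) and 3 of 9 in dendritic cells (-0.11). None of these genes was called. Within the zones they were 8 of 9 above 0 in venous-like cells (median 0.13), 7 of 9 in capillary-like (0.06) and arterial-like cells (0.10) and 4 of 9 in tip-like cells (-0.0051). The lower capillary share of the ancrod mice given with Itga4 moved with the value over all endothelial-like cells, and its part was not tested. Of the 7 roles only the NF-κB role was followed through every class, and others were as one-sided elsewhere. Selectin ligands were above 0 in 1 of 8 genes in dendritic cells (median -0.38) and 2 of 10 in microglia-like cells (-0.16). Integrin activation was above 0 in 6 of 6 in microglia-like cells (0.07). The share of all genes above 0 was not counted, and genes of 1 role in the same mice are not separate observations.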

How the data were processed

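Single-cell 3′ RNA libraries of 8 mice were sequenced, and the authors deposited 1 matrix of UMI counts per mouse, made per the labels with Cell Ranger 7.1.0 and STAR on GRCm39 (mm39), with intronic as well as exonic reads. The counts are raw and not normalised. From these counts, droplets with at least 2000 UMIs and under 20% mitochondrial UMIs were kept, expected doublets (0.8% per 1000 cells) were removed, and cells were clustered (20 principal components, 20 neighbours, Leiden resolution 2, seed 1; Python 3.11.15, leidenalg 0.10.2). Clusters were named from marker lists. Endothelial-like cells were clustered again without the 9 adhesion genes. The authors' cell calls were not used here, so cell names are rebuilt. Thinning drew 2000 UMIs from each cell.

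For each class, the UMI counts of a mouse's cells were added up where it had 10 cells or more, and ancrod was compared with saline by edgeR 4.0.16 (glmQLFit and glmQLFTest, TMM, all 8 mice, no covariate) across all genes, with Benjamini-Hochberg adjustment per class at 0.05. Tests are two-sided. DESeq2 1.42.0 was an alternative (R 4.3.3). Each mouse is 1 replicate. Alternatives were RLE size factors, no filter on low counts, a batch term, the replicate number as a block, no doublet removal, Leiden resolution 1, the study's cell filter, cells thinned to 5000 UMIs and leaving out each mouse. The study's filter was rebuilt only in part, from the inflection point of UMIs per droplet, its mitochondrial limit and its limits on UMIs and genes. Its further test for empty droplets and its marker check of doublet clusters were left out. The 9 genes and all lists were chosen with earlier results of these data known. Genes named are the 9, plus the pathway genes with the 3 lowest p-values and the 3 nearest by likeness; the regulators Nfkbia and Tnfaip3, the integrin chains, Madcam1, the Mctp1 and Trim69 clusters and the promoters shown were chosen after their values were seen. Limits from a count of 0 (3 UMIs) and shares cover counting error only. Genes at very low counts were not tested in a class.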

Additional observations from a re-analysis of the deposited data

Results flagged for a closer look

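Of 92 groups of 4 mice examined, 6 held a mouse far from the other 3 by Dixon's 95% criterion (the gap to the nearest mouse over the whole range), and chance alone flags about 1 in 20 groups. In endothelial-like cells Icam2 was at 143.9 CPM in saline 2 and at 159.3 to 159.7 in the other saline mice. Icam2 in border-associated macrophages was at 4.268 CPM in saline 4, the second batch, and at 0.3357 to 0.9324 in the others. In monocytes Itga4 was at 334.0 CPM in ancrod 1 and 405.9 to 419.1 in the others, and in T cells Itgal was at 158.7 CPM in ancrod 3 and 235.4 to 246.9 in the others. Icam1 in pericyte-like cells was at 19.37 CPM in ancrod 4, also of the second batch, and 59.22 to 66.5 in the others. In astrocyte-like cells Vcam1 was at 382.8 CPM in ancrod 1 and 251.8 to 273.0 in the other ancrod mice, all above the saline mice.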

How the results depend on the processing

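Under the alternatives, 46 of the 83 log2 differences of the adhesion genes were followed, and calls were counted for all. Of 406 resulting log2 differences, 392 kept their direction and side of the threshold, and of 366 with 1 mouse left out, 331 did. The cause of the changes was not tested. The replicate numbers did not pair the mice (1 of 4 same-number correlations in endothelial-like cells was above 0.1). With a replicate block, genes called numbered 0 in border-associated macrophages (main 1), 1 in T cells, 1 in NK cells (both main 0), 0 in fibroblasts (main 1) and 85 in pericytes (main 22), and no adhesion gene was called. Genes called by DESeq2 numbered 26 in endothelial-like cells and 6 in capillary-like cells, 3 in microglia, 3 in inflammatory macrophages, 4 in monocytes, 15 in border-associated macrophages, 15 in dendritic cells, 1 each in neutrophils, T cells and NK cells, 152 in fibroblasts, 74 in pericytes and 2 in astrocytes. With no filter on low counts they numbered 10 in arterial-like and 5 in tip-like cells, 22 in monocytes, 2 in border-associated macrophages, 3 in dendritic cells, 99 in neutrophils, 16 in T cells, 45 in NK cells and 197 in pericytes. With a batch term they numbered 0, 1, 2 and 69 in border-associated macrophages, neutrophils, NK cells and pericytes. Without doublet removal they numbered 0 in arterial-like cells and border-associated macrophages, 1 in dendritic and T cells and 9 in pericytes. Resolution 1 gave 0 in arterial-like cells and border-associated macrophages. The study's filter gave 0, 2 and 13 in border-associated macrophages, dendritic cells and pericytes and no arterial zone, and thinning to 5000 UMIs gave 3 in dendritic cells, 3 in fibroblasts and 4 in pericytes. Leaving out a mouse gave 0 to 2 in endothelial-like cells, 0 to 4 in monocytes, 0 to 3 in border-associated macrophages, 0 to 1 in T cells, 0 to 6 in fibroblasts and 3 to 94 in pericytes. Of the adhesion genes, 1 was called without the filter (Icam1 in pericytes) and 1 by DESeq2 (Vcam1 in astrocytes).

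These log2 differences reversed. Without doublet removal Icam2 was 0.017 in endothelial-like cells and 0.012 in arterial-like cells, Icam1 -0.0533 in venous-like and 0.025 in tip-like cells, and Selp -0.23 in venous-like cells. Under the study's filter Ackr1 was -0.061 and Selp -0.031 in endothelial-like cells, Selp -0.054 in venous-like cells and Selplg -0.0724 in monocytes. Selp was -0.052 in endothelial-like cells with a batch term and -0.048 in venous-like cells at resolution 1, and Selplg was -0.066 in T cells after thinning. With 1 mouse left out, endothelial differences ranged from -0.25 to 0.30 for Ackr1, -0.25 to 0.26 for Sele, -0.27 to 0.33 for Selp, -0.36 to 0.18 for Vcam1, -0.014 to 0.50 for Icam1 and -0.093 to 0.062 for Icam2. The ranges were -0.22 to 0.93 for venous Selp, -0.19 to 0.30 for venous Icam1, -0.59 to 0.37 for capillary Vcam1, -0.11 to 0.034 for arterial Icam2, -0.27 to 0.086 for tip Icam1 and -0.039 to 0.14 for microglial Icam1. They were -0.14 to 0.020 for Itga4 in monocytes, -0.26 to 0.061 in T cells and -0.18 to 0.23 in NK cells, and for Itgal -0.34 to 0.040 in neutrophils, -0.0038 to 0.22 in T cells and -0.026 to 0.15 in NK cells.

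Levels moved by more than 1 SD in these cases. Without doublet removal capillary-like cells had 222 CPM of Icam1, 132 of Icam2, 2.60 of Sele, 0.875 of Selp and 17.1 of Ackr1, venous-like cells 312 of Selp, tip-like cells 344 of Vcam1, 624 of Icam1, 71.6 of Sele, 53.7 of Selp and 171 of Ackr1, arterial-like cells 0.112 of Ackr1 and microglia 3.79 of Itgal. Under the study's filter capillary-like cells had 95.5 of Vcam1, 264 of Icam1, 136 of Icam2, 4.23 of Sele and 10.6 of Ackr1, inflammatory macrophages 73.4 of Selplg, and monocytes 258 of Itga4 and 171 of Itgal. At resolution 1 venous-like cells had 394 of Ackr1, tip-like cells 34.8 of Sele, 12.3 of Selp and 68.8 of Ackr1, arterial-like cells 0.17 of Ackr1, and border-associated macrophages 5.78 of Itgal. Cell names were rebuilt from markers and depth was higher in every ancrod library, which limits low counts such as Selp outside the Mctp1 cluster.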
